A study of Mus musculus with 8 samples.

Results

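Polycomb complexes and the repressors that keep germline genes silent were followed through the differentiation of mouse embryonic stem cells (ESCs) into primordial germ cells (PGCs). The 35 genes are a list drawn up by function: the subunits of Polycomb repressive complexes 1 and 2 (PRC1 and PRC2), 2 subunits of the PR-DUB deubiquitinase, and E2f6, Mga, L3mbtl2 and Pcgf6, the core of the complex known as PRC1.6. Of these, 32 have a probe on the array, among 16593 genes with one, and 3 (Rbbp4, Rybp and Asxl1) were not analysed here. Signals are normalized log2 values, in which 1 unit is a factor of 2, and a gene counts as detected on an array when the scanner software's detection p is under 0.01.

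The RNA went onto 8 bead arrays of the Illumina MouseRef-8 v2 type. Wt ESCs and Gcnf-deficient (Gcnf-/-) ESCs had 1 array each, as did the in vitro-derived PGCs of each genotype, sorted for the Oct4-GFP(ΔPE) reporter on day 12 and on day 15. EpiSCs, pluripotent stem cells of the primed, post-implantation type, had 2 arrays (EpiSC replicates 1 and 2), and the labels give them no Gcnf knockout. Gcnf, the product of Nr6a1, is an orphan nuclear receptor that represses Pou5f1 (Oct4) as embryonic cells differentiate. All samples are labelled C57BL/6, and the cell type label reads PGC on all 8, ESCs and EpiSCs included. The lines came from embryos that joined the reporter with the Gcnf knockout. Wt lines of both sexes were kept, but the Gcnf-deficient line was female. No label or method ties a line to an array, so genotype and line cannot be told apart. ESCs were kept with LIF on feeder fibroblasts, and PGCs were made on gelatin without either. In sorted or mixed bulk cells, fewer cells of a type and less RNA per cell cannot be told apart. The methods speak of biological or technical duplicates without saying which, so the EpiSC pair may be technical, and p-values measure only the spread between these arrays.

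Polycomb complexes hold developmental genes silent through marks on histones. PRC2, through Ezh2 or Ezh1 with Eed and Suz12, methylates lysine 27 of histone H3. PRC1, through Ring1 or Rnf2, adds ubiquitin to histone H2A, and which of the Pcgf proteins it holds sets which complex it forms: canonical PRC1 carries Cbx proteins that read the PRC2 mark together with Phc proteins that polymerize, while variant PRC1 carries Rybp or Yaf2. In PRC1.6, E2f6 and Mga (with its partner Max) bind DNA directly at the promoters of germ cell genes, which this complex is known to keep off in ESCs.

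The DNA letters that these proteins read are shown for 6 promoters, 5 of germ cell genes known as targets of PRC1.6 and 1 of Cbx8, a Polycomb gene of the list itself. Each run is 300 bases of RefSeq sequence (GRCm38.p6), 250 before to 50 after the start of the gene, written 5′ to 3′ on the gene's strand. Capitals mark CACGTG, the E-box that Mga binds with Max, and TCCCGC or its reverse complement GCGGGA, the core of an E2F site. The 2 motifs can share at most 1 base, at an edge. Stag3 encodes a meiotic cohesin subunit, Stk31 a germ cell kinase-like protein, Taf7l a germ cell relative of a general transcription factor, Smc1b another meiotic cohesin subunit and Tuba3a a testis tubulin.
Stag3, chr5:138280259-138280558, plus strand: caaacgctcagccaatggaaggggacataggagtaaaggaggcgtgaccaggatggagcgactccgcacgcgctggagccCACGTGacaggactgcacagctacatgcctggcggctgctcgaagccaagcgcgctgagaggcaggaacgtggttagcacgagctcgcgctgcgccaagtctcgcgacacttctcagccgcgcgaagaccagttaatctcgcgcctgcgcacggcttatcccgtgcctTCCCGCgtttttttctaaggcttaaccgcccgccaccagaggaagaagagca
Stk31, chr6:49395289-49395588, plus strand: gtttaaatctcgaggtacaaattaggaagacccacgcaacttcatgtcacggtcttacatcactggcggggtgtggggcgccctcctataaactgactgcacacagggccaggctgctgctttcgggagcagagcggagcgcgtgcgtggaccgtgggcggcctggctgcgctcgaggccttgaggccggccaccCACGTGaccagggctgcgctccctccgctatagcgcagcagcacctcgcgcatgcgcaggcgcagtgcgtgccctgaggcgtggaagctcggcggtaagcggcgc
Taf7l, chrX:134476441-134476740, minus strand: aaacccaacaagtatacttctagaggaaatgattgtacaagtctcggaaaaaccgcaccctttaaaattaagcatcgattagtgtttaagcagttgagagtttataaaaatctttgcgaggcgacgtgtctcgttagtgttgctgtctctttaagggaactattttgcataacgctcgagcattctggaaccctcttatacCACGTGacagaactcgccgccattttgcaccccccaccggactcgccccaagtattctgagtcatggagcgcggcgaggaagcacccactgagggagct
Smc1b, chr15:85131908-85132207, minus strand: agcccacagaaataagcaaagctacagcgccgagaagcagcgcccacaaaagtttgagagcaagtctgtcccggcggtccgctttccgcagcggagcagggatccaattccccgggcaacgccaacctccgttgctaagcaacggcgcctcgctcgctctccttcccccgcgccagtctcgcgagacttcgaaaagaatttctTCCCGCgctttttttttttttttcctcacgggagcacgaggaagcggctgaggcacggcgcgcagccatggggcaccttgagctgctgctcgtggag
Tuba3a, chr6:125286032-125286331, minus strand: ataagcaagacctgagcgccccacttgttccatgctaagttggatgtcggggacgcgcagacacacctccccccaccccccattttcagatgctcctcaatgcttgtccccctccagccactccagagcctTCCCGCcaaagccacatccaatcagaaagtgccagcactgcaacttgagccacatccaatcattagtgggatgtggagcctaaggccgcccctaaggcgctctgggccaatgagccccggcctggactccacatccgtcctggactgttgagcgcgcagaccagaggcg
Cbx8, chr11:119040864-119041163, minus strand: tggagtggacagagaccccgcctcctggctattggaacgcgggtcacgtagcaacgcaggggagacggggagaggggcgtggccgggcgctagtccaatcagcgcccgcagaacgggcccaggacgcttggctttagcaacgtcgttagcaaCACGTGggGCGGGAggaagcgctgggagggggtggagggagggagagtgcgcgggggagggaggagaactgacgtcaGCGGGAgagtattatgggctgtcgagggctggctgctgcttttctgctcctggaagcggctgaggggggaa
Stag3 holds both motifs, with the first base of the E-box 170 bases before its start, and an E2F core that begins 2 bases before the start and runs across it. Positions are those of the first base of a motif. The E-box lies 55 bases before the start in Stk31 and 49 in Taf7l. Smc1b and Tuba3a hold the E2F core alone, 47 and 119 bases before their starts. Cbx8 has an E-box at 98 bases and E2F cores at 90 and 21 bases before its start. Of 24 germ cell genes of the list that have a promoter entry, 11 (45.8%) held the E-box, 10 (41.7%) the E2F core and 6 both. Over all 32851 windows of the same length, counting both strands, the shares were 7.15%, 20.0% and 1.99%. Among 31 of the Polycomb genes with an entry, 8 held the E-box and 11 the E2F core. A match describes the letters only.

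Of the 32 genes with a probe, 19 (59.4%) were detected on all 8 arrays and 27 on at least 1, against 34.8% of all genes detected on all arrays. The 5 detected on none were Ezh1, Phf1, Cbx6, Phc3 and Kdm2b, so nothing is said of their differences. The number detected ranged from 22 on each EpiSC array to 27 on the wt day-15 array. The share over all genes was also lowest on the EpiSC arrays (42.84% and 41.77%) and highest on wt day 15 (46.64%). The lowest detected log2 signal was 5.91 and 6.03 on the EpiSC arrays and 5.38 on wt day 15. Among the 19 detected everywhere, 12 (63.2%) spanned more than 1 log2 unit over the arrays, and 73.3% of the 5773 such genes did.

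**Figure D1:**
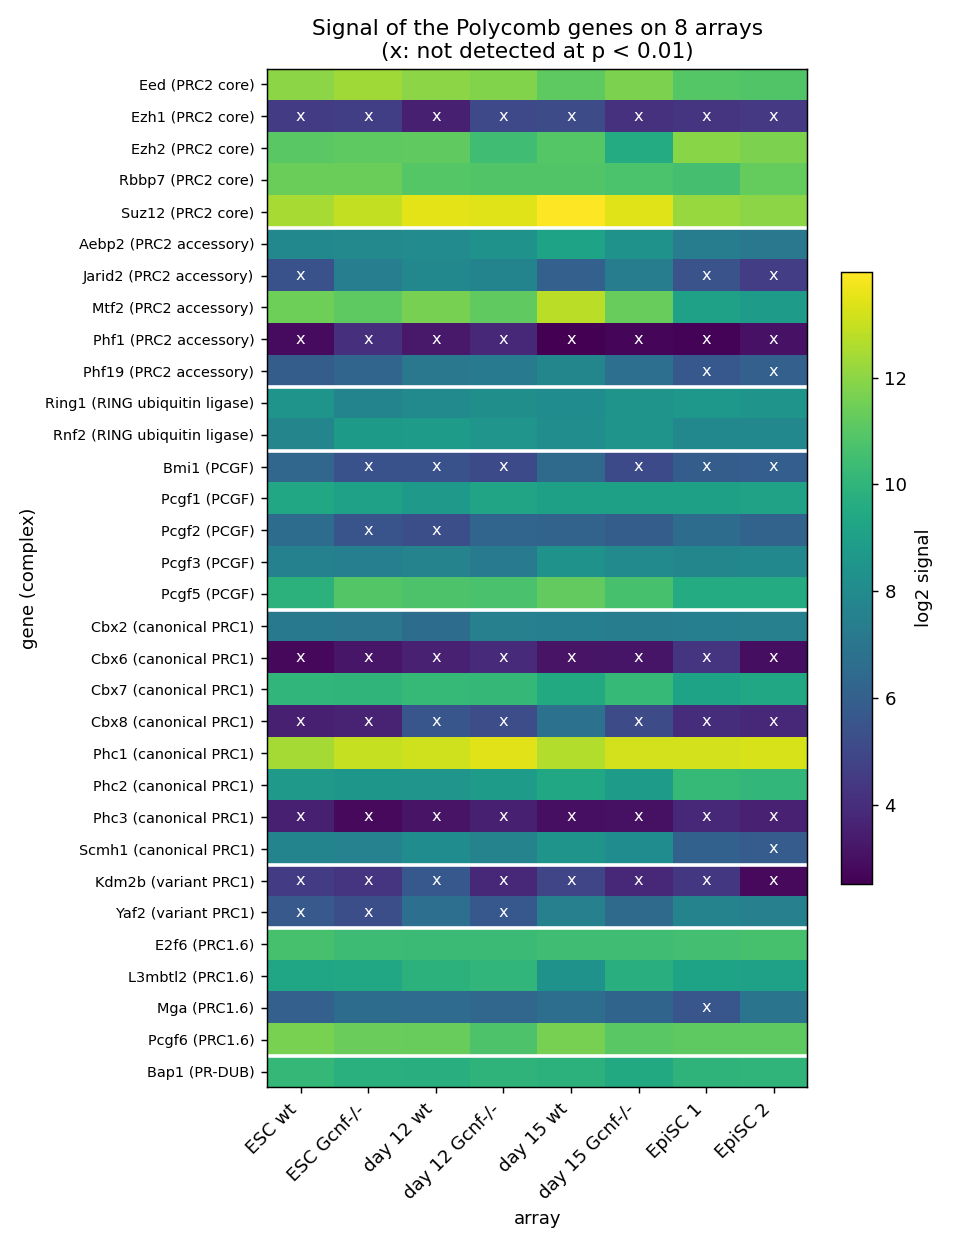
Normalized log2 signal (colour) of the 32 genes (rows, grouped by complex) on the 8 arrays (columns), with an x where a gene was not detected. Colours compare arrays within a row and not probes with each other. The rows of E2f6 and Bap1 are nearly even, while the EpiSC arrays are lowest in the rows of Mtf2 and Scmh1 and highest in that of Phc2.

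The arrays themselves differed in ways that bear on these genes. The Nr6a1 probe was detected on all 8 arrays. It read 9.64 in wt and 11.03 in Gcnf-deficient ESCs, 9.83 to 10.38 in PGCs and 12.31 to 12.46 in EpiSCs. Its position relative to the deleted exons is not stated, and it therefore checks no label. Pou5f1 was detected on all arrays. Fgf5, which marks the primed state, read 10.81 and 11.25 in EpiSCs, and Dazl and Dppa3, which mark PGCs, were highest in the wt PGCs and not detected in EpiSCs. Of 9 germ cell markers with a probe, 8 were detected on each wt PGC array and on the Gcnf-deficient day-15 array. On the Gcnf-deficient day-12 array and each ESC array 6 were detected, and on each EpiSC array 1, Ifitm3. Not all followed Dazl: Prdm14 was highest in Gcnf-deficient day-12 PGCs (6.96), and Ifitm3 read 13.23 in wt ESCs. Of 16 fibroblast genes with a probe (such as Col1a1, Acta2 and Lum), 14 were detected on the wt ESC array with a median of 9.71, and 9 on the Gcnf-deficient ESC array, where the median was 6.46. On the other 6 arrays 4 or 5 were detected, with medians of 3.45 to 4.28. The part of these transcripts in any difference against ESCs was not tested. The wt day-15 array held the highest signal of 9 of the 27 detected Polycomb genes (33.3%) and of 21.8% of 8973 detected genes, the largest share of any array for both. Scaling each array by its median in place of quantile normalization moved the median difference of detected genes the most for EpiSCs against this array, from 0.01 to 0.52.

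The yardstick for the spread between arrays is the EpiSC pair. Over the 21 Polycomb genes detected on both, the SD of the difference between the 2 arrays was 0.218 log2 units, and it was 0.243 over 6768 genes. None of the 21 was over 2-fold apart, the widest gap being 0.68 for Rbbp7. Mga, detected on replicate 2 alone, lies outside the 21 and was 1.34 apart. The counts over 2-fold below need detection on the brighter side only, so the yardstick does not cover genes near the detection limit.

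EpiSCs were compared first with ESCs, the primed against the naive pluripotent state. In limma's fit of all 8 arrays in 4 groups (ESC, day 12, day 15 and EpiSC, with genotypes pooled, 4 residual degrees of freedom), 5 of the 27 Polycomb genes tested had a Benjamini-Hochberg adjusted p under 0.05 over 8973 genes, where 19.9% of all genes did. Eed, Mtf2 and Scmh1 were lower in EpiSCs (10.1% of all genes were lower), and Phc2 and Yaf2 were higher (9.8% were higher). Yaf2 was not detected in ESCs and entered the fit only through arrays where it was higher. The median of the 27 differences was −0.16, and the median over all genes was 0.00.

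Mtf2, an accessory subunit that leads PRC2 to unmethylated CpG islands, had the widest of these gaps. Its signal was 11.44 and 11.12 in wt and Gcnf-deficient ESCs, 11.61 and 11.19 on day 12, 12.77 and 11.32 on day 15, and 9.08 and 8.80 in EpiSCs. Both EpiSC arrays lay below all 6 others. It was 5.06-fold lower in EpiSCs than in ESCs (log2 difference −2.34 ± 0.48 SE, limma adjusted p = 0.0170).

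Scmh1, a canonical PRC1 subunit with an MBT domain, read 7.71 and 7.59 in ESCs of the 2 genotypes, 8.10 and 7.63 on day 12, 8.46 and 8.09 on day 15, and 6.07 and 5.84 in EpiSCs. EpiSC replicate 2 was not detected, and both EpiSC arrays lay below the others. Against ESCs it fell by 1.69 (SE 0.30, limma adjusted p = 0.00951). A second, dimmer Scmh1 probe was detected on 1 array only.

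Eed, the PRC2 subunit that binds the H3K27 methyl mark, read 11.97 and 12.35 in ESCs, 11.99 and 11.79 on day 12, 11.15 and 11.73 on day 15, and 10.94 and 10.88 in EpiSCs. EpiSCs were lowest, with wt day-15 PGCs next. The fall against ESCs was 2.38-fold (log2 −1.25 ± 0.31 SE, limma adjusted p = 0.0318).

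Phc2, a Polyhomeotic subunit of canonical PRC1, went the other way. It read 8.70 and 8.57 in ESCs, 8.50 and 8.80 on day 12, 9.35 and 8.79 on day 15, and 10.20 and 10.08 in EpiSCs, which did not overlap the rest. It was 2.85-fold higher than in ESCs (log2 1.51 ± 0.30 SE, limma adjusted p = 0.0147).

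Yaf2, the relative of Rybp in variant PRC1, was detected on neither ESC array (5.72 and 5.29) and on both EpiSC arrays (7.64 and 7.50). In PGCs it read 6.72 and 5.69 on day 12 and 7.51 and 6.50 on day 15, wt before Gcnf-deficient, and the Gcnf-deficient day-12 array did not detect it. Taken against the lowest signal detected on the ESC arrays, or the probe's own where that was higher, it was at least 3.55-fold higher in EpiSCs (group means 7.57 and 5.50). The limma adjusted p of 0.0240 carries the choice of arrays that let it into the fit.

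These calls rest on few arrays. Without EpiSC replicate 1 or without replicate 2, the fit called 0 Polycomb genes against ESCs, and it called 547 and 587 genes in all. Without the wt ESC array it called Phc2 and Scmh1, and without the Gcnf-deficient ESC array Mtf2 and Scmh1. With the mean of all probes of each gene, Mtf2, Phc2 and Yaf2 were called. The call of Eed was also lost with median scaling, with no detection filter and without either day-12 array.

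**Figure D2:**
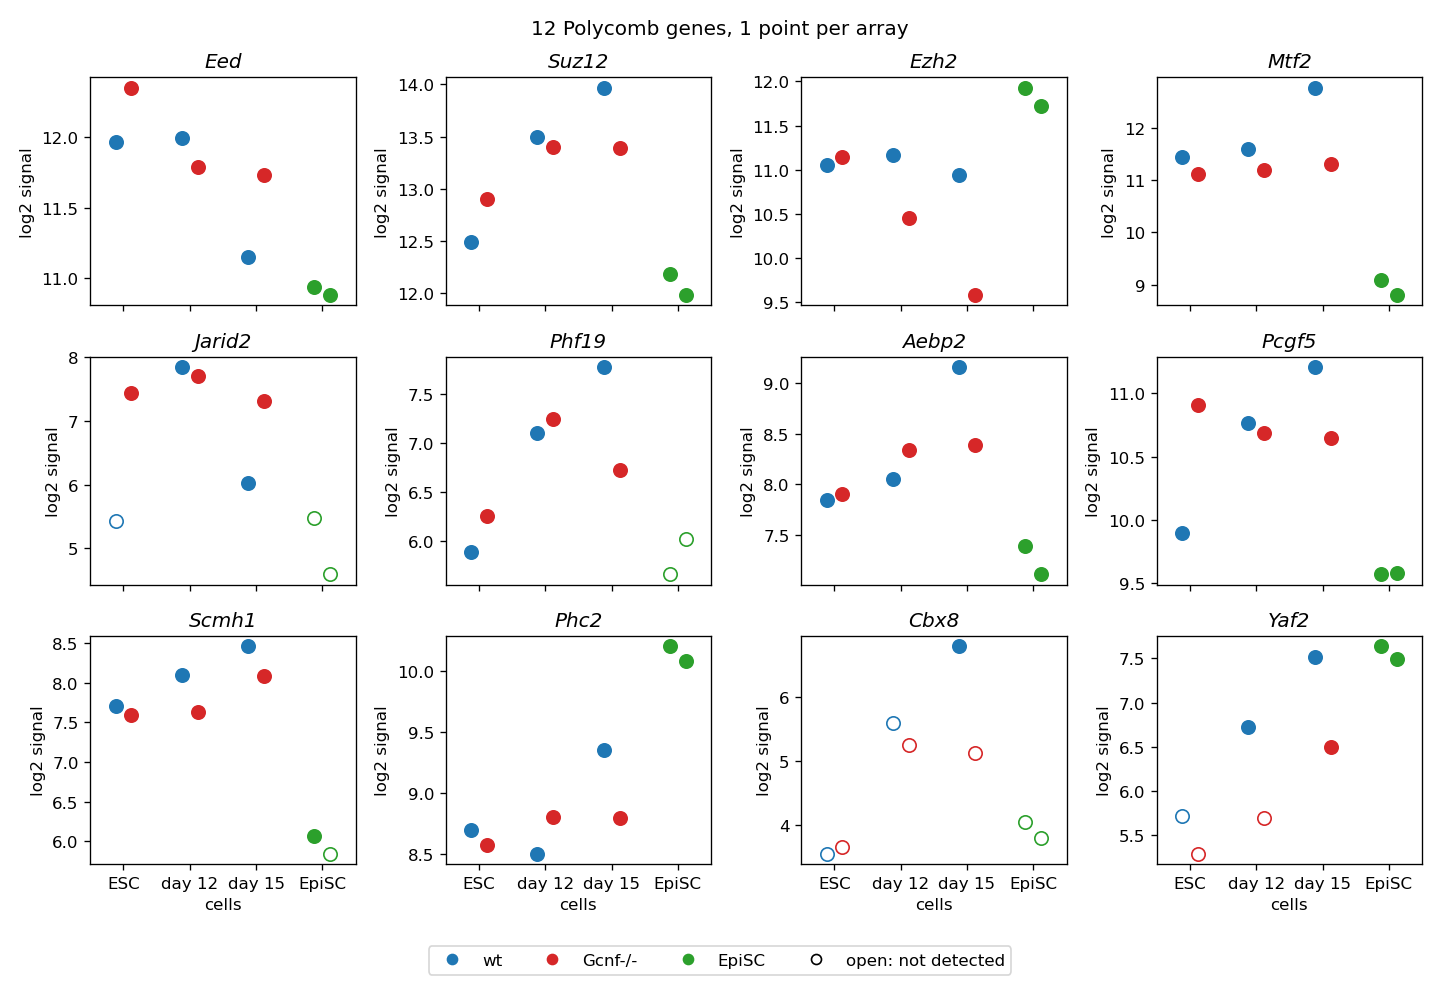
Normalized log2 signal (y axis, its range differing between panels) of 12 Polycomb genes on each array, by cell type (x axis) and genotype (colour), with open points where the gene was not detected. The EpiSC points of Mtf2 (9.08 and 8.80) and Scmh1 (6.07 and 5.84) lie below all others, and those of Phc2 and Ezh2 above them. Each gene is shown on the probe used, and a second Ezh2 probe did not repeat this.

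EpiSCs were then compared with PGCs, the mean of days 12 and 15 over both genotypes, in the same fit. EpiSCs enter both comparisons, so the 2 are not independent. Of the 27 genes, 9 were called, where 32% of all genes were. Lower in EpiSCs were 8 of them (16.5% of all genes were lower). They were Suz12 in the PRC2 core, Pcgf5, Cbx8 and Scmh1 of canonical PRC1, and Jarid2, Mtf2, Phf19 and Aebp2. The last 4 are the PRC2 accessory subunits of the list that could be tested. Epop, an accessory subunit outside the list, was detected on all arrays and was not called (log2 difference −0.07, limma adjusted p = 0.912). Jarid2, Phf19 and Cbx8 were not detected in EpiSCs and entered the fit through arrays where they were higher. Phc2 was the 1 called higher, where 15.4% of all genes were. With median scaling the split was 6 lower and 2 higher, with Ezh2 joining Phc2 and with Suz12 and Pcgf5 no longer called. The median difference over the 27 genes was −0.06, against 0.03 over all genes.

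Suz12, the scaffold of PRC2, read 12.49 and 12.90 in ESCs, 13.49 and 13.40 on day 12, 13.97 and 13.39 on day 15, and 12.18 and 11.98 in EpiSCs. The 4 PGC arrays lay above both ESC arrays, and the EpiSC arrays lay below all. It was 2.79-fold lower in EpiSCs than in PGCs (log2 −1.48 ± 0.27 SE, limma adjusted p = 0.00717). Mtf2 was 6.87-fold lower than in PGCs (log2 −2.78 ± 0.42 SE, limma adjusted p = 0.00336), and Scmh1 4.33-fold lower (limma adjusted p = 0.00151).

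Jarid2, which joins PRC2 and helps place it on chromatin, varied most across the arrays among the genes detected on at least 5 of them, apart from Mtf2. It was detected on the Gcnf-deficient ESC array (7.44) but not in wt ESCs (5.43), on both day-12 arrays (7.85 wt and 7.71 Gcnf-deficient), at 6.03 and 7.31 on day 15, and on neither EpiSC array (5.47 and 4.60). The wt day-15 signal was thus the lowest of the PGCs. Jarid2 was at least 2.39-fold higher in PGCs than in EpiSCs (means 7.23 and 5.03, limma adjusted p = 0.0344).

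Phf19, an accessory subunit whose Tudor domain reads methylated H3K36, read 5.89 and 6.26 in ESCs, 7.10 and 7.25 on day 12 and 7.77 and 6.73 on day 15. It was not detected in EpiSCs (5.67 and 6.02), which lay at the level of wt ESCs and below all 4 PGC arrays. It was at least 2.37-fold higher in PGCs (means 7.21 and 5.84, limma adjusted p = 0.0223). Aebp2, an accessory subunit of the Jarid2-containing PRC2, was highest in wt day-15 PGCs (9.16). On the other 5 ESC and PGC arrays it read 7.85 to 8.39, and 7.39 and 7.11 in EpiSCs (log2 difference from PGCs −1.24 ± 0.29 SE, limma adjusted p = 0.0180). The other 2 Aebp2 probes did not follow it, one being detected on 2 arrays and the other on none.

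Pcgf5, of a variant PRC1, read 9.89 in wt ESCs and 10.91 in Gcnf-deficient ESCs, 10.77 and 10.69 on day 12, 11.21 and 10.65 on day 15, and 9.57 and 9.58 in EpiSCs. Wt ESCs lay nearer to EpiSCs than to the other ESC array. Against PGCs it fell by 1.25 in EpiSCs (SE 0.34, limma adjusted p = 0.0298). Phc2 was 2.43-fold higher in EpiSCs than in PGCs (log2 1.28 ± 0.26 SE, limma adjusted p = 0.0103).

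Without EpiSC replicate 1, and likewise without replicate 2, 2 of the 9 calls against PGCs remained, Mtf2 and Scmh1. Without the wt day-12 array 5 remained (Aebp2, Mtf2, Phc2, Scmh1 and Suz12), and without the Gcnf-deficient day-12 array 5 (Cbx8 in place of Aebp2). Jarid2 and Pcgf5 were also lost with genotype as a term, and Aebp2 and Jarid2 with the mean of all probes.

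**Figure D3:**
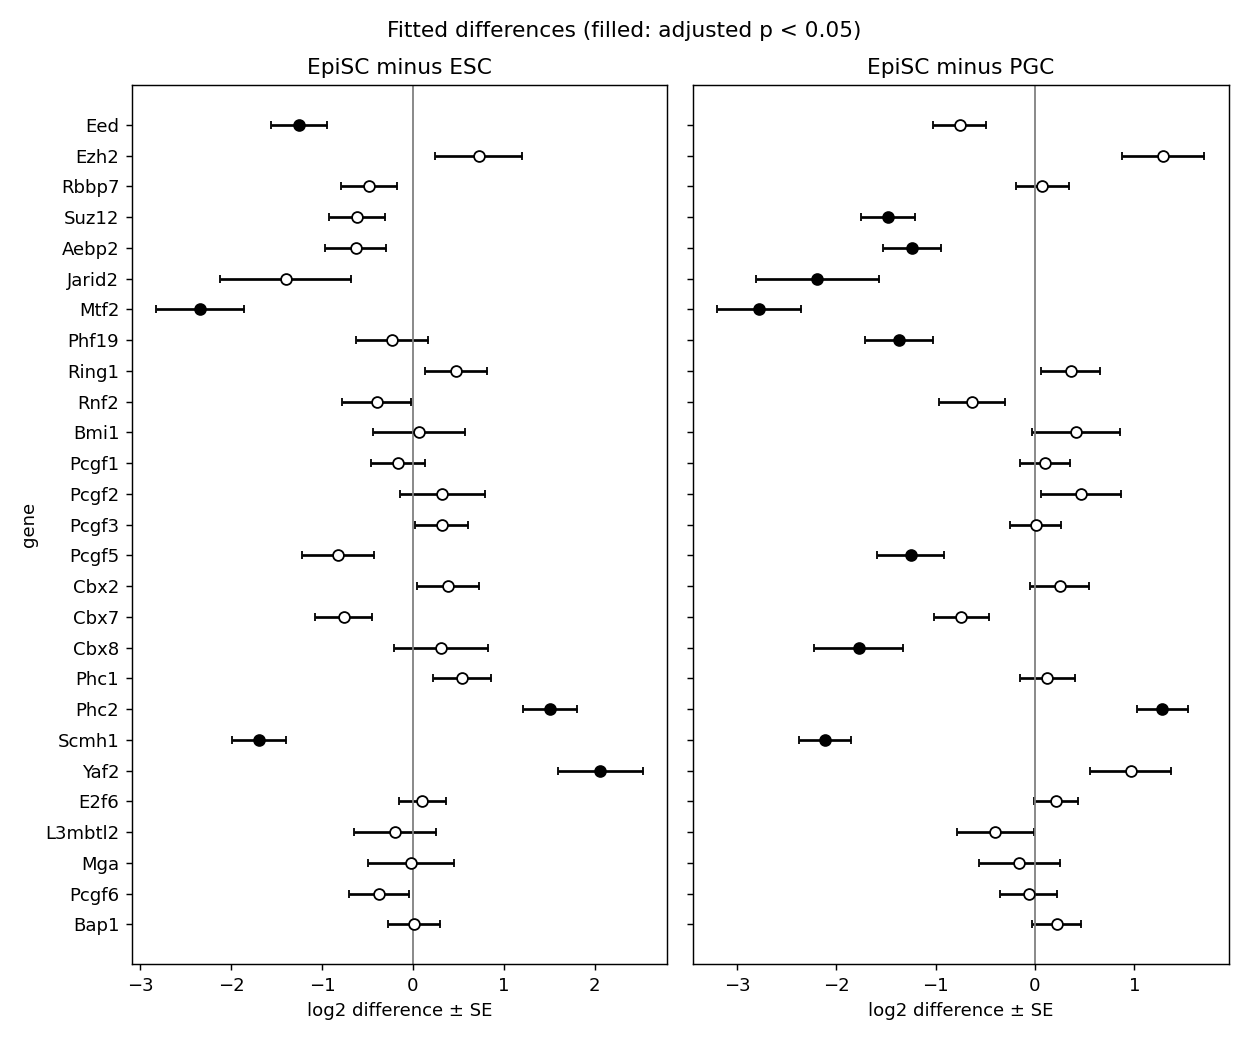
Fitted log2 differences (x axis, bars ± SE) of the 27 detected Polycomb genes (y axis), EpiSCs minus ESCs on the left and EpiSCs minus PGCs on the right, filled where the adjusted p was under 0.05. Mtf2 (−2.34 and −2.78) and Scmh1 (−1.69 and −2.11) are low in both panels and Phc2 (1.51 and 1.28) is high in both, with E2f6, Mga and Bap1 near 0.

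Against single arrays of wt cells, with no test, EpiSCs were over 2-fold from ESCs in the same 5 genes as in the fit (17.5% of all genes, 8.77% higher and 8.71% lower). With median scaling 4 were higher (Ezh2, Phc1, Phc2 and Yaf2) and 2 lower (Mtf2 and Scmh1). From day-15 PGCs EpiSCs differed in 7 genes, all lower (23.1% of all genes, 10.8% higher and 12.3% lower): Aebp2, Cbx8, Mtf2, Pcgf5, Phf19, Scmh1 and Suz12. Mtf2 had the widest gap, 14.2-fold. With median scaling 5 of these were lower and 4 other genes were higher, Ezh2, L3mbtl2, Phc1 and Phc2.

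The catalytic subunits were called in no fit. Ezh2, the main H3K27 methyltransferase of dividing cells, read 11.05 and 11.14 in ESCs, 11.17 and 10.45 on day 12, 10.94 and 9.58 on day 15, and 11.93 and 11.72 in EpiSCs. On this probe EpiSCs were highest and Gcnf-deficient day-15 PGCs lowest. A second, dimmer Ezh2 probe, detected on 7 arrays, was also lowest there (4.94). It read 7.68 and 6.77 in EpiSCs and 7.56 and 7.31 in ESCs, so EpiSCs did not stand above the rest on it. The difference of EpiSCs from PGCs, 1.29 ± 0.42 SE, did not pass in limma's fit (adjusted p = 0.0523). Its relative Ezh1, more used in resting cells, was detected on no array (3.54 to 5.14). Rbbp7, the histone-binding PRC2 subunit, stayed between 10.59 and 11.41.

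Ring1 read 8.45 and 7.70 in ESCs, 8.00 and 8.23 on day 12, 8.09 and 8.45 on day 15, and 8.65 and 8.45 in EpiSCs. Rnf2, the other E3 ligase, read 7.75 and 8.74 in ESCs, 8.85 and 8.48 on day 12, 8.14 and 8.46 on day 15, and 7.85 on each EpiSC array. Rnf2 in EpiSCs lay below the 4 PGC arrays and between the ESC arrays. Ring1 in EpiSCs lay above the PGC arrays, but replicate 2 and Gcnf-deficient day-15 PGCs were alike to 2 decimals. Neither was called in any fit.

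Cbx proteins, the readers of canonical PRC1, differed in pattern. Cbx7, known as the main Cbx of ESCs, read 10.05 and 10.00 in ESCs, 10.20 and 10.14 on day 12, 9.47 and 10.21 on day 15, and 9.18 and 9.35 in EpiSCs. EpiSCs were lowest, with limma adjusted p-values of 0.140 against ESCs and 0.0806 against PGCs. Cbx2 stayed between 6.58 (wt day 12) and 7.53 (EpiSC replicate 2), and Cbx6 was detected on no array (2.77 to 4.25).

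Cbx8, known to replace Cbx7 when cells leave pluripotency, was detected on 1 array only, wt day 15, at 6.79. It read 3.55 and 3.65 in ESCs, 5.58 and 5.25 on day 12, 5.12 in Gcnf-deficient day-15 PGCs, and 4.04 and 3.79 in EpiSCs, all without detection. The wt day-15 signal was at least 2.02-fold that of wt ESCs and at least 2.17-fold that of Gcnf-deficient day-15 PGCs, with no replicate behind either. The fit against PGCs called it lower in EpiSCs (means 3.91 and 5.69, limma adjusted p = 0.0232), but it entered that fit through the wt day-15 array alone and both means lie below the detection limit, so no fold is given. That call was lost with neqc, with an offset of 50 added, with no background correction and with the mean of all probes.

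The change from ESCs to PGCs was tested over 6 arrays with genotype as a term (2 residual degrees of freedom). None of the 27 Polycomb genes passed in limma's fit, where 0.426% of 8686 genes did (0.334% higher and 0.0921% lower). An unadjusted p under 0.05 was found for 4 of them, and for 20.4% of all genes. The 4 were Suz12, Phf19, Cbx8 and Yaf2, all with the higher mean in PGCs. The smallest adjusted p was 0.0853, for Cbx8. With each of the 6 arrays left out in turn the count stayed at 0.

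Between single arrays, differences of over 2-fold with detection on the brighter side were counted, with no test. From wt ESCs to wt day-15 PGCs, 7 of 32 genes differed that far (16.5% of all genes): Aebp2, Cbx8, Mtf2, Pcgf5, Phf19, Suz12 and Yaf2. All 7 were higher in PGCs, as 8.74% of all genes were, and 7.77% were lower. With median scaling 3 were higher (Cbx8, Phf19 and Yaf2) and 3 lower (Eed, L3mbtl2 and Rbbp7). Set against the Gcnf-deficient ESC array, which had fewer fibroblast transcripts detected, wt day-15 PGCs differed in 10 genes, 6 of the 7 among them, with 16.5% of all genes. From wt ESCs to wt day 12 there were 4 (11.5% of all genes, 6.35% higher and 5.12% lower), with Jarid2, Phf19 and Rnf2 higher and Pcgf2 lower. Jarid2 was at least 4.21-fold higher there. Against the Gcnf-deficient ESC array Yaf2 alone was over 2-fold apart, which is not among these 4, with 8.1% of all genes.

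In Gcnf-deficient cells fewer genes were that far apart. From ESCs to day 12 there were 0 (6.5% of all genes, 3.61% higher and 2.89% lower). To day 15 there were 2 (8.96% of all genes, 5.28% higher and 3.68% lower), Yaf2 higher and Ezh2 lower. Between days 12 and 15, wt PGCs differed in 6 genes (11.3% of all genes, 5.2% higher and 6.07% lower), with Aebp2, Bmi1, Cbx8 and Mtf2 higher on day 15 and Jarid2 and L3mbtl2 lower, and with median scaling 1 was higher and 8 lower. Gcnf-deficient PGCs differed in 0 (2.23% of all genes, 1.37% higher and 0.862% lower). Whether the change with differentiation differs between genotypes was tested as an interaction in limma, which called 0 of the 27 genes and 0% of 8686 genes. No Polycomb gene had an unadjusted p under 0.05 there, and 559 genes of all did. On simulated data this fit did not find even large changes, so its count of 0 says nothing of whether the genotypes differed.

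The effect of Gcnf loss was tested over the 3 stages with stage as a block. In limma's fit 0 of 27 Polycomb genes were called, where 0.0115% of 8686 genes were, and the smallest adjusted p among them was 0.295. Bmi1 and Yaf2 had an unadjusted p under 0.05, as did 14% of all genes. Yaf2 was detected in both genotypes on day 15 alone, where it was lower by 1.02 in Gcnf-deficient PGCs. On day 12 it was at least 1.75-fold lower, and in ESCs it was detected in neither genotype, so the fitted difference rests in part on signals below the detection limit. Bmi1, a Pcgf protein of canonical PRC1, was detected on 2 arrays, those of wt ESCs (6.32) and of day-15 wt PGCs (6.48). The fitted log2 differences of the 27 ran from −0.86 (Bmi1) to 1.05 (Jarid2, SE 0.45, limma adjusted p = 0.375), with a median of −0.11 against −0.02 over all genes.

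Stage by stage, Gcnf-deficient and wt ESCs were over 2-fold apart in 3 genes (9.02% of all genes, 4.71% higher and 4.31% lower). Jarid2 was at least 3.17-fold higher and Pcgf5 2.02-fold higher in Gcnf-deficient ESCs, and Pcgf2 at least 1.83-fold lower. The fibroblast transcripts above were also higher on the wt ESC array. On day 12 there was 1 (4.59% of all genes, 2.12% higher and 2.47% lower), Yaf2, lower in Gcnf-deficient PGCs. On day 15 there were 8 (12.3% of all genes), with Jarid2 and L3mbtl2 higher in Gcnf-deficient PGCs (6.71% of all genes were higher) and Bmi1, Cbx8, Ezh2, Mtf2, Phf19 and Yaf2 lower (5.57% were lower). With median scaling the split on day 15 was 5 higher and 2 lower, and the median over the 27 detected genes turned from −0.40 to 0.10. With wt day 12 in place of wt day 15, the Gcnf-deficient day-15 array differed from wt in 1 gene, Ezh2, while the share over all genes went from 12.3% to 6.04%.

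The 4 subunits of PRC1.6 were called in no fit. E2f6, the DNA-binding repressor of the E2F family, had the narrowest range of the 32 genes on the probe used. It read 10.64 and 10.35 in ESCs, 10.34 and 10.31 on day 12, 10.45 on both day-15 arrays, and 10.57 and 10.63 in EpiSCs. The arrays spanned 0.33 log2 units, and the fitted difference of EpiSCs from PGCs was 0.21 ± 0.22 SE. Its other 2 probes, also detected on all 8 arrays, were less even, at 9.50 to 10.11 and 6.32 to 7.81.

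Pcgf6, the Pcgf protein that defines the complex, read 11.65 and 11.36 in ESCs, 11.31 and 10.79 on day 12, 11.63 and 11.05 on day 15, and 11.12 and 11.14 in EpiSCs. It was lower in Gcnf-deficient than in wt cells at each stage, by 0.28 to 0.58, with a fitted difference of −0.46 ± 0.25 SE (limma adjusted p = 0.441). L3mbtl2, its MBT-domain subunit, read 9.25 and 9.37 in ESCs, 9.87 and 10.06 on day 12, 8.36 and 9.77 on day 15, and 9.14 and 9.09 in EpiSCs. The wt day-15 array stood below all others, 2.64-fold below Gcnf-deficient cells of the same day. Mga, the scaffold that pairs with Max, read 6.03 and 6.56 in ESCs, 6.53 and 6.31 on day 12, 6.67 and 6.23 on day 15, and 5.60 and 6.95 in EpiSCs. The lowest and the highest were the 2 EpiSC replicates, and replicate 1 was not detected. Bap1, the catalytic subunit of PR-DUB, stayed between 9.49 and 10.14.

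**Figure D4:**
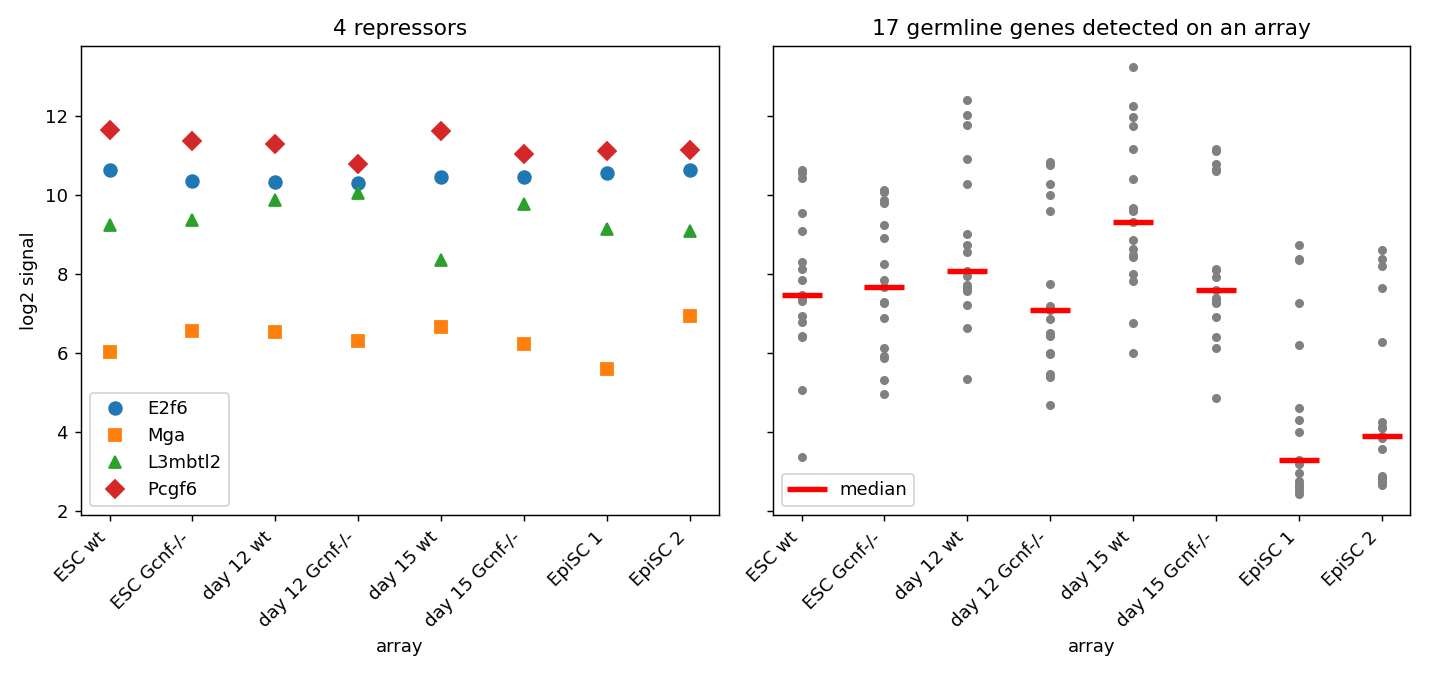
Normalized log2 signal (y axis) on each array (x axis) of E2f6, Mga, L3mbtl2 and Pcgf6 on the left and of 17 germ cell genes (grey points, red bar their median) on the right. The germ cell genes are those detected on at least 1 array, and 12 of them were not detected in EpiSCs. The EpiSC medians lie below the detection limit and follow in part from this choice. E2f6 spans 0.33 log2 units on the probe used, and the median of the germ cell genes is 9.31 in wt day-15 PGCs and 3.28 and 3.89 in EpiSCs.

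The germ cell genes known as targets of PRC1.6 were read on the same arrays. Of 26 such genes listed, 24 have a probe and 17 were detected on at least 1 array. Between 14 and 17 were detected on each ESC and PGC array, and 5 on each EpiSC array. Of the 24 with a probe, 15 were detected on each ESC array, and the genes outside the 17 on no array. The complex is known to keep such genes off in ESCs, and whether it did so here was not tested. The median signal of the 17 was 7.47 and 7.68 in wt and Gcnf-deficient ESCs, 8.07 and 7.10 on day 12, 9.31 and 7.59 on day 15, and 3.28 and 3.89 in EpiSCs. Of the 17, 12 were detected in ESCs or PGCs but not in EpiSCs, so they entered the fits only through arrays where they were higher. No count of calls over the 17 is read from them. The low EpiSC medians follow in part from this choice. They also lie below the lowest detected signals of those arrays (5.91 and 6.03), so the size of the gap is not measured. They were not tested against the subunits.

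Tdrkh, a piRNA pathway gene, was detected on both EpiSC arrays and ran the other way. It read 6.44 and 5.94 in ESCs, 5.34 and 4.68 on day 12, 6.77 and 4.86 on day 15, and 8.36 and 8.21 in EpiSCs. Tdrkh was detected on only 1 of the PGC arrays, wt day 15. It was called higher in EpiSCs than in PGCs (limma adjusted p = 0.00703), but not without either EpiSC replicate, and against ESCs its adjusted p was 0.051. Tdrd7, detected on all arrays, was also higher in EpiSCs, by 0.81 than in ESCs and 0.67 than in PGCs. It was not called (limma adjusted p = 0.147 and 0.131). Stag3 read 9.09 and 9.87 in ESCs, 10.84 to 11.18 in the 4 PGC arrays, and 4.29 and 4.11 in EpiSCs, where it was not detected. It was at least 33.3-fold higher in PGCs than in EpiSCs (means 11.03 and 4.20). Smc1b, also not detected in EpiSCs, was at least 27.2-fold higher in PGCs (means 10.74 and 3.26). No p-value is given for either, since both entered the fit only through arrays where they were higher.

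Stk31 read 7.39 and 7.27 in ESCs, 9.01 and 7.10 on day 12, 8.64 and 7.33 on day 15, and 2.66 and 2.85 in EpiSCs. Not detected in EpiSCs, it was at least 4.14-fold higher in PGCs (means 8.02 and 2.75), and its wt PGC arrays lay above the Gcnf-deficient ones. Tuba3a was detected on all arrays, at 9.80 to 12.25 in ESCs and PGCs and at 7.27 and 7.64 in EpiSCs, a 13.4-fold difference from PGCs (limma adjusted p = 0.0041). Taf7l read 8.13, 7.73 and 9.59 in wt ESCs, day-12 and day-15 PGCs and 5.87, 5.40 and 6.13 in the Gcnf-deficient cells, so the genotypes did not overlap, but its genotype difference did not pass in limma (−2.68, adjusted p = 0.126). None of the 17 was called for genotype.

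Partners and other repressors of germline genes were read beside them. Of 8 partners of PRC1.6, 1 was called higher in EpiSCs than in ESCs and 0 lower, where 9.8% of all genes were higher and 10.1% lower: Cbx1 (HP1 beta), which read 6.46 and 6.18 in ESCs and 8.34 and 8.35 in EpiSCs (limma adjusted p = 0.0172). Max itself stayed between 10.26 and 10.99. Against PGCs Cbx1 was again called higher and Wdr5 lower (log2 −1.20, limma adjusted p = 0.0133). Of 11 other germline gene repressors tested, 2 were called higher and 2 lower in EpiSCs in each of the 2 comparisons, where 19.9% and 32% of all genes were called. Dnmt3b, the de novo DNA methyltransferase of the primed epiblast, was higher by 2.17 than in ESCs (limma adjusted p = 0.0124). Ehmt1, an H3K9 methyltransferase that works with E2f6, was higher by 1.50 (limma adjusted p = 0.00963). Zfp42 (Rex1) fell by 6.57 and Morc3 fell by 1.91.

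Of 17 further Polycomb subunits tested, 1 was called higher and 2 lower in EpiSCs than in ESCs, where 19.9% of all genes were called. Auts2, which marks an activating variant PRC1, read 5.70 and 5.49 in ESCs and 7.86 and 7.34 in EpiSCs. It was the one called higher, but it was not detected in ESCs and entered the fit only through arrays where it was higher. Ezhip, an inhibitor of PRC2 known from germ cells, read 7.36 and 7.50 in ESCs, 7.94 and 6.28 on day 12, 9.19 and 7.27 on day 15, and 2.24 and 3.32 in EpiSCs. It was called lower, but it was not detected in EpiSCs and entered the fit only through arrays where it was higher. Usp7 was also called lower. Among 8 trithorax genes and H3K27 demethylases tested, 2 were called higher (Kdm6b, an H3K27 demethylase, by 2.24, and Smarca4, the BAF ATPase, by 1.33) and 2 lower, where 19.9% of all genes were called. Ash2l fell by 1.96 and Rbbp5 fell by 1.14, both of the COMPASS core.

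Of 45 developmental genes listed for the PRC2 mark they carry in ESCs, 41 have a probe and 21 were detected on at least 1 array. Between 5 and 11 were detected on each array, and 4 of the 21 (Hoxa2, Hoxb2, Hoxb4 and Msx1) on EpiSC arrays alone. Since such genes entered the fits through the arrays where they were higher, no count of calls is read from the list. Hoxb2 read 4.91 and 2.98 in ESCs and 8.37 and 8.06 in EpiSCs. Tbx3 read 10.21 and 10.40 in ESCs and 2.84 and 3.25 in EpiSCs, where it was not detected. Cdkn1c, a cell cycle inhibitor, was detected on all 8 arrays, at 7.79 and 7.22 in ESCs, 10.18 and 9.48 on day 12, 7.88 and 10.04 on day 15, and 11.85 and 11.79 in EpiSCs (limma adjusted p = 0.00562 against ESCs). Of the 17 that could be tested over ESCs and PGCs, none was called between these or between genotypes.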

How the data were processed

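Total RNA of 8 samples was read on Illumina MouseRef-8 v2 bead arrays. The authors read the arrays with BeadStudio 3.2, and the deposited table holds signal intensities, not yet normalized, with a detection p-value for each probe and array. A second table that the authors deposited gives log2 values, made per the methods by RMA background correction and quantile normalization with lumi, and served as an alternative.

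The intensities were processed again by the same steps (RMA background model, log2, quantile normalization over 8 arrays) in R 4.3.3 with limma 3.58.1. Symbols came from the platform annotation, updated through gene identifiers (23978 of 25697 probes have 1 symbol). For 4777 genes with several probes the one with the highest mean signal stood for the gene. Genes detected at p under 0.01 on at least 1 array of a fit were tested, and p-values were Benjamini-Hochberg adjusted over all of them. Median raw signals ran from 138 to 189, and the lowest detected log2 signal from 5.38 to 6.03. The number of arrays limits the precision.

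"At least" folds set the brighter group's mean against the mean, over the arrays of a group with no detection, of the higher of each array's lowest detected signal and the probe's own. A p-value beside such a fold belongs to the fitted difference, which takes in signals below the detection limit. Arrays were grouped by title. With 1 array per condition, genotypes or stages stood in for replicates. The members and gene lists were chosen with earlier results of these data known. The rule for naming genes took members called in a fit or over 4-fold apart in a pair with the brighter side detected, the PRC2 core, RING, CBX and PRC1.6 genes, and up to 4 examples of each other list, called genes first. The germ cell genes named beyond 4, the values of Bap1, Bmi1, Max, Pcgf2 and Rbbp7, and the promoters printed go beyond it and were chosen after values were seen. The fits were tested on simulated data. Alternatives covered the value table, background correction, scaling, filters, probe choice, covariates and left-out arrays. The methods' PCR and staining were not analysed here.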

Additional observations from a re-analysis of the deposited data

How the results depend on the processing

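The counts of Polycomb genes called for genotype, for PGCs against ESCs and for their interaction stayed at 0 under every alternative run, including each single array left out of the first 2, which in fits of 2 residual degrees of freedom is no sign of stability. The interaction fit did not find even large changes in simulated data. For EpiSCs against ESCs (5 called) the count was 3 with the mean of all probes of a gene, 2 without the wt ESC array and 2 without the Gcnf-deficient ESC array, and 0 to 0 without either EpiSC replicate. For EpiSCs against PGCs (9 called) it was 5 without the wt and 5 without the Gcnf-deficient day-12 array, and 2 to 2 without either EpiSC replicate. Over all genes, the calls ranged from 0 to 42 for genotype (1 in the fit as reported), 0 to 417 for PGCs against ESCs (37), 547 to 2411 for EpiSCs against ESCs (1783) and 897 to 3312 for EpiSCs against PGCs (2867). The fits without single ESC or PGC arrays (other than wt ESCs in the EpiSC fits), all interaction alternatives and the substituted arrays were chosen after seeing the data.

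Counts over 2-fold between single arrays moved as follows. For Gcnf-deficient against wt ESCs (3) they were 1 with neqc, 1 with an offset of 50, 0 with no background correction and 1 at a 4-fold limit. For genotype on day 12 (1) they were 0 with neqc, an offset of 50, no background correction or the 4-fold limit, 2 with median scaling, and 3 with mean probes or with no detection needed. For genotype on day 15 (8) they were 3 with an offset of 50, 3 with no background correction, 0 at 4-fold, and 1 with wt day 12 in place of wt day 15. For wt ESCs to day 12 (4) they were 1 with an offset of 50, no background correction, the 4-fold limit or the other ESC array, and 7 with median scaling. For wt ESCs to day 15 (7) they were 3 with no background correction and 1 at 4-fold. For Gcnf-deficient ESCs to day 12 (0) they were 1 with the value table, median scaling or no detection needed, and 3 with mean probes. To day 15 (2) they were 1 with neqc, an offset of 50 or no background correction, 5 with mean probes, 4 with no detection needed and 0 at 4-fold. From day 12 to day 15 they were 3 with an offset of 50, 2 with no background correction and 0 at 4-fold in wt (6), and 1 with median scaling, mean probes or no detection needed in Gcnf-deficient PGCs (0). EpiSCs against wt ESCs (5) gave 3 with no background correction and 1 at 4-fold, and EpiSCs against wt day 15 (7) gave 3 at 4-fold.

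Of 508 values of single genes under alternatives 507 kept their direction, and Aebp2 from wt day 12 to day 15 reversed, from 1.10 to −0.24 with the mean of its 3 probes. The cause of each change was not tested. Arrays could not be paired by replicate number because the groups compared share fewer than 2 replicate numbers. The stage block of the genotype fit sets wt and Gcnf-deficient arrays side by side within each stage. Signals under about 6 log2 units are near the detection limit, which bounds Cbx8, Jarid2, Phf19 and Yaf2.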
